A study of Mus musculus with 8 samples.

Results

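The Notch pathway was described here through 32 of its genes, of which 31 had a probe set listed with that gene alone on a mouse whole-genome oligonucleotide array, among 18193 genes measured. The 31 were 4 receptors, 5 ligands, 3 Fringe enzymes, 5 ligase and protease genes, 3 genes of the nuclear complex, 4 regulators and 7 genes of the target class. Expression of Maml3, which is among the 32, was not analysed here. The probe set with the highest mean over 8 arrays stood for each gene, as log2(intensity + 16) after quantile normalization, so that a value of 4.00 is the floor of the scale. Levels of different genes cannot be set against each other, because each probe set has its own response.

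Messenger RNA came from 3 wild-type mouse cell types. V6.5 was the line of the ES cells (3 arrays), kept in medium with 15% serum and leukemia-inhibiting factor, first on irradiated fibroblasts and then passaged on gelatin to remove these feeders. The neural precursor cells (NPC, 3 arrays) were made in culture from ES cells through embryoid bodies (4 days) and a selection step in ITSFn medium, and were then kept in FGF2 and, as the labels write it, EGF2. The fibroblasts (MEF, 2 arrays) were primary cells of the mouse embryo, grown in 10% serum. Nothing in the labels ties the arrays to separate cultures, so the p-values rest on a spread among arrays that could be technical only. Precision is limited by the number of arrays.

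Notch receptors are membrane proteins activated by Delta-like and Jagged ligands on neighbouring cells. Binding exposes the receptor to an ADAM protease and then to gamma-secretase, which frees its intracellular part to enter the nucleus, bind the DNA-binding protein RBPJ with a Mastermind cofactor, and switch on repressors of the Hes and Hey families. In the developing nervous system this signal holds cells as precursors, since Hes factors repress the proneural genes that drive neuron formation, and in mesenchyme and vessel walls Jagged ligands and Hey targets are the better known members.

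For most markers the levels followed the labels: all 3 ES markers (Pou5f1, Nanog and Zfp42) were called lower in NPC and in MEF than in ES cells, the precursor genes Nes, Fabp7 and Olig2 were called higher in NPC than in both others, and all 3 fibroblast markers (Col1a1, Col1a2 and Thy1) were called higher in MEF. The fourth precursor marker, Sox2, a gene of both ES cells and neural precursors, was at 11.91 to 12.14 in ES cells, 10.72 to 11.61 in NPC and 5.51 to 5.56 in MEF, so that it lay below ES cells in NPC (-0.98, not called). Within its group NPC 1 stood apart, correlating at 0.967 and 0.969 with NPC 2 and NPC 3 over all probe sets, against 0.987 between those. The MEF arrays were the brightest as deposited, and array medians differed 1.65-fold, so comparisons with MEF depend on the scaling. Without further scaling the median difference of all genes moved from -0.04 to 0.32 for MEF minus ES and from -0.01 to 0.43 for MEF minus NPC.

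In NPC, 8 members exceeded their ES level and 6 fell below it, 14 of 31 (45.2%), at an adjusted p under 0.05 (limma, Benjamini-Hochberg over all genes) and a log2 difference of 1 or more in size, which is what called means throughout. Of all genes, 22.9% were called in that comparison, 10.0% higher and 12.9% lower. In MEF, 9 members exceeded their ES level and 7 fell below it, 16 of 31 (51.6%), beside 25.0% of all genes, 12.2% higher and 12.8% lower. Between MEF and NPC, 3 members were higher and 6 lower in MEF, 9 of 31 (29.0%), beside 18.5% of all genes, 10.5% higher and 7.95% lower. The median log2 difference of the members was 0.33 for NPC minus ES, 0.21 for MEF minus ES and -0.09 for MEF minus NPC, against -0.05, -0.04 and -0.01 for all genes. The first 2 comparisons share the ES arrays. Without NPC 1, which stood apart, 14, 16 and 10 members were called. In all, 21 members were called at least once and 10 were not: Notch2, Dll4, Rfng, Adam17, Psen2, Maml2, Numb, Numbl, Dtx3 and Nrarp.

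Among the receptors, Notch1 was highest in NPC, Notch3 and Notch4 were highest in ES cells, and Notch2 was not called. Notch1, a receptor broadly used by neural precursors, was at 6.96, 6.79 and 6.98 on the ES arrays, 9.32, 8.88 and 8.84 on the NPC arrays and 7.53 and 7.54 on the MEF arrays. All NPC arrays lay above all MEF arrays, and these above all ES arrays. Notch1 was 4.30-fold higher in NPC than in ES cells (log2 difference 2.10, SE 0.14, limma adjusted p = 2.44e-06) and 2.78-fold lower in MEF than in NPC (-1.48, SE 0.16). The fall from NPC to MEF was not called with median centring (-0.92), at the deposited scaling (-0.57) or when its probe sets were averaged (-0.90). The second Notch1 probe set gave smaller differences on the same side (0.46 and -0.33). The 0.63 between MEF and ES cells was not called and became 1.12 and 1.44, called, under median centring and the deposited scaling.

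Notch4, a receptor best known from endothelium, was at 7.49, 7.33 and 7.43 on the ES arrays, 4.64, 5.81 and 5.75 on the NPC arrays and 4.43 and 4.29 on the MEF arrays. No NPC or MEF array reached the ES values, and both MEF arrays and NPC 1 were near the floor. It was 4.04-fold lower in NPC (log2 difference -2.02, SE 0.29, limma adjusted p = 3.62e-04) and 8.35-fold lower in MEF (-3.06, SE 0.33). The other 2 Notch4 probe sets had deposited intensities of at most 21.4 on any array and differed by -0.01 to 0.52 in these comparisons, and with the mean of all 3 probe sets neither fall was called (-0.50 and -0.91). Among endothelial markers, Pecam1 was also higher in ES cells, at 6.88 to 7.12 against 4.13 to 4.27 on the other arrays, and the other 4 (Cdh5, Kdr, Tek and Emcn) were not called in any comparison. The summed intensity of the 5 markers was 166 to 182 in ES cells, 41.1 to 134 in NPC and 70.4 to 89.1 in MEF, and none was listed at 0 on any array. The ES sum was mostly Pecam1 (mean 7.01), and the NPC sum of 134 was mostly Emcn on NPC 1 (6.63 against 4.79 and 4.93). These sums therefore do not rank the cell types by endothelial content. Whether cells of that type bear on Notch4 was not tested.

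The call of Notch4 between MEF and NPC (-1.05, adjusted p = 0.031, limma) was close to both limits. It ended without ES 1, ES 2 or ES 3 (adjusted p = 0.0519, 0.0514 and 0.0519), without NPC 2 or NPC 3 (-0.85 and -0.87), without MEF 1 or MEF 2 (adjusted p = 0.109 and 0.158), at the deposited scaling (-0.83), with a pseudocount of 64 (-0.43), with the mean of its probe sets (-0.41) and in the fit of those groups alone (adjusted p = 0.0864).

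Notch3 was at 8.52 ± 0.05 in ES cells (SD, n = 3), 7.41 ± 0.20 in NPC (n = 3) and 6.58 ± 0.06 in MEF (n = 2). It was 2.15-fold lower in NPC (-1.10, SE 0.12) and 3.82-fold lower in MEF (-1.93, SE 0.14), and both probe sets gave nearly equal differences, the second at -1.19 and -1.88. The NPC call ended without NPC 3 (-0.99) and with a pseudocount of 64 (-0.92). Notch2 varied least of the receptors, at 8.10 ± 0.07, 8.39 ± 0.10 and 8.52 ± 0.10. Its differences from ES cells, 0.29 in NPC (95% interval 0.08 to 0.51) and 0.42 in MEF (0.18 to 0.66), were below the minimum of 1, though at the deposited scaling it was called higher in MEF than in ES cells (1.25) and NPC (1.03).

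Among the ligands, Dll1 was highest in NPC, Jag1 was higher in NPC and in MEF than in ES cells, and Dll3 was lowest in MEF. Dll1, the ligand shown by differentiating neural cells to their neighbours, was at 6.27, 5.81 and 5.96 on the ES arrays, 7.67, 7.70 and 7.73 on the NPC arrays and 5.12 and 4.96 on the MEF arrays. The 3 groups did not overlap and the NPC arrays were nearly equal. Dll1 was 3.22-fold higher in NPC than in ES cells (1.69, SE 0.16, limma adjusted p = 2.07e-05) and 6.30-fold lower in MEF than in NPC (-2.66, SE 0.17). Its difference between MEF and ES cells (-0.97) fell just short and was called without ES 2 (-1.08), ES 3 (-1.02) or MEF 1 (-1.02), under the trimmed mean scaling (-1.10) and with a pseudocount of 1 (-1.46).

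Jag1, a Jagged ligand of epithelia, vessels and mesenchyme, was at 7.74, 7.68 and 7.80 on the ES arrays, 9.64, 10.18 and 10.15 on the NPC arrays and 9.82 and 9.99 on the MEF arrays. Every NPC and MEF array was above every ES array, and NPC and MEF overlapped. The rise was 4.77-fold in NPC (2.25, SE 0.14) and 4.49-fold in MEF (2.17, SE 0.16), and MEF minus NPC was -0.09 (95% interval -0.45 to 0.28). The other 2 Jag1 probe sets also rose in both cell types but put MEF above NPC, by 0.88 and 1.12. So did median centring (0.48) and the deposited scaling (0.82) for the brightest probe set, without a call.

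Dll3, a divergent ligand that inhibits signalling inside the cell that makes it, was at 6.60, 6.77 and 7.07 on the ES arrays, 6.44, 6.17 and 6.61 on the NPC arrays and 4.79 on each MEF array. ES and NPC overlapped slightly and MEF lay below both. Dll3 was 4.07-fold lower in MEF than in ES cells (-2.02, SE 0.20) and 3.07-fold lower than in NPC (-1.62, SE 0.20), the latter -0.82 and not called with a pseudocount of 64. Jag2 was 2.56-fold lower in NPC than in ES cells (-1.35, SE 0.30, limma adjusted p = 0.00431), at 6.28 ± 0.33 and 4.92 ± 0.57 (n = 3 each), and this call ended with a pseudocount of 64 (-0.67). The Jag2 probe sets disagreed on MEF: the brightest gave -0.58 against ES cells, not called, and the second -2.39, so that the mean of both was called (-1.48). Against NPC, Jag2 in MEF differed by 0.78, and by 1.06, called, without NPC 2 and 1.19, called, at the deposited scaling. Dll4, the ligand of sprouting vessels, was dim throughout, with a deposited intensity of 4.61 to 34.0 over the 8 arrays and no call.

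The Fringe genes encode enzymes that extend O-fucose sugars on Notch and so shift which ligands it answers, and 2 of the 3 went in opposite directions. Lfng was at 5.16, 5.19 and 5.00 on the ES arrays, 8.11, 7.74 and 7.32 on the NPC arrays and 6.75 and 6.86 on the MEF arrays. No arrays of different groups overlapped, with ES lowest and NPC highest. It was 6.09-fold higher in NPC (2.61, SE 0.20, limma adjusted p = 6.38e-06) and 3.22-fold higher in MEF (1.69, SE 0.23) than in ES cells. The MEF rise was not called with a pseudocount of 64 (0.96) or the mean of the Lfng probe sets (0.94). The NPC to MEF difference (-0.92) was called without NPC 3 (-1.13) and with a pseudocount of 1 (-1.02). It shrank to -0.49 with median centring and to -0.15 at the deposited scaling, so the order of NPC and MEF in Lfng depends on the scaling. Mfng was 2.27-fold lower in NPC (-1.18, SE 0.19) and 2.72-fold lower in MEF (-1.44, SE 0.22), from 6.47 ± 0.14 in ES cells, and both calls ended with a pseudocount of 64 (-0.65 and -0.76). Rfng had its highest mean in NPC, with arrays at 7.77 to 8.30 against 6.87 to 7.31 in ES cells and 6.98 to 7.07 in MEF, without a call (0.90 and -0.97). It was called against ES cells without ES 3 (1.01) or NPC 1 (1.02). Between MEF and NPC it was called without NPC 1 (-1.09), NPC 3 (-1.02) or MEF 1 and with a pseudocount of 1 (-1.06). Median centring reduced MEF minus NPC to -0.50, and the values as deposited gave only -0.16. The second Rfng probe set had its highest mean in MEF (6.84), above NPC (6.58) and ES cells (6.26). The place of NPC as highest for Rfng thus rests on the brightest probe set.

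**Figure D1:**
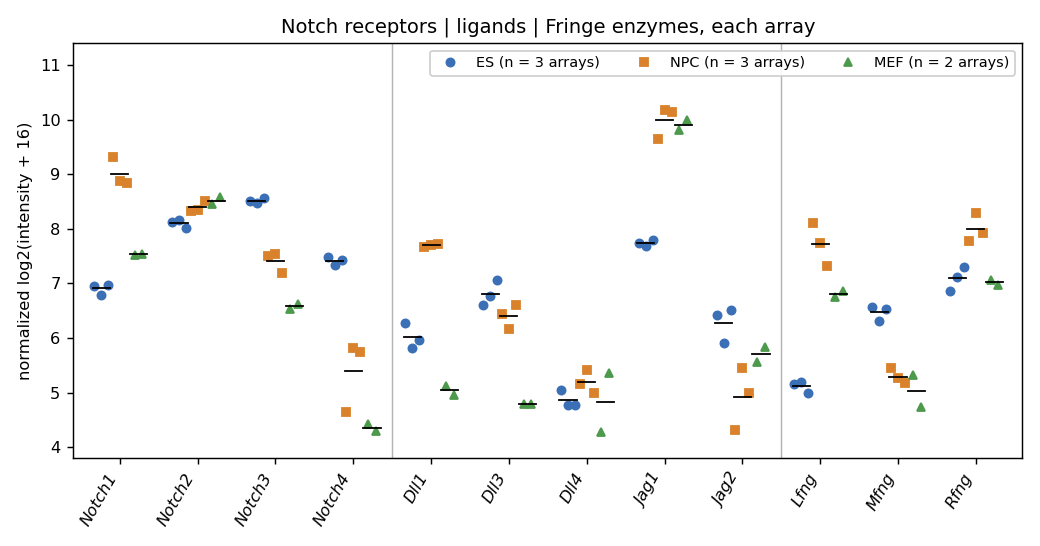
Normalized log2(intensity + 16) of the Notch receptor, ligand and Fringe genes on every array (circles ES, squares NPC, triangles MEF), with a bar at each group mean. Notch1, Dll1 and Lfng are highest on the NPC arrays, Notch3 and Notch4 are highest on the ES arrays, and Jag1 is near 10 in both NPC (mean 9.99) and MEF (mean 9.90).

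The genes that prepare ligand and receptor for signalling were higher outside ES cells or not called, and none was called lower. Adam10, the protease that makes the first activating cut in Notch, was at 8.49 ± 0.02 in ES cells, 10.41 ± 0.02 in NPC (n = 3 each) and 10.39 ± 0.17 in MEF (n = 2). It rose 3.79-fold in NPC (1.92, SE 0.08, limma adjusted p = 1.44e-07) and 3.73-fold in MEF (1.90, SE 0.09), and MEF minus NPC was -0.02 (95% interval -0.22 to 0.18). The further Adam10 probe sets gave 0.16 to 0.72 for MEF minus NPC. Median centring (0.56) and the deposited scaling (0.91) also put MEF higher, without a call. All 4 Adam10 probe sets were on the same side in both rises, at 0.23 to 1.92 in NPC and 0.39 to 2.45 in MEF. Its relative Adam17 was at 7.82, 8.45 and 8.18 in ES cells, NPC and MEF (means), with no call except MEF over ES cells at the deposited scaling (1.18). Both further Adam17 probe sets had their highest mean in MEF, with MEF minus NPC at 0.69 and 0.41, against -0.27 for the brightest.

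Ncstn encodes nicastrin, the substrate-binding subunit of gamma-secretase, and it was highest in MEF. It was at 6.44 ± 0.06 in ES cells, 7.00 ± 0.40 in NPC and 8.41 ± 0.14 in MEF, 3.92-fold higher in MEF than in ES cells (1.97, SE 0.21) and 2.66-fold higher than in NPC (1.41, SE 0.21). Averaging in its dim second probe set ended the call against NPC (0.51). Psen2, a presenilin, stayed within 6.11 to 6.55 in the group means and was called only at the deposited scaling, in MEF over NPC (1.07). Mib1, the ubiquitin ligase that lets the sending cell pull on its ligand, rose 2.06-fold in NPC (1.04, SE 0.08) and was at 0.91 in MEF. With differences so close to the minimum, the NPC call ended with median centring (0.97), the deposited scaling (0.95), a pseudocount of 64 (0.93) and the mean of its probe sets (0.61), while the MEF difference was called under median centring (1.42) and the deposited scaling (1.74).

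Rbpj, which encodes the DNA-binding protein on which all Notch receptors converge, was highest in ES cells. It was at 10.77, 10.87 and 10.61 on the ES arrays, 8.50, 8.54 and 8.30 on the NPC arrays and 9.23 and 9.29 on the MEF arrays. The groups did not overlap, and NPC was the lowest. Rbpj was 4.94-fold lower in NPC than in ES cells (-2.30, SE 0.10, limma adjusted p = 1.62e-07), and its other 2 probe sets gave -2.30 and -2.11. It was 2.80-fold lower in MEF (-1.49, SE 0.11), a call that ended at the deposited scaling (-0.69). For MEF minus ES the other 2 probe sets gave -1.33 and -0.74, the latter under the minimum of 1. MEF minus NPC was 0.82 and was called with median centring (1.37), the deposited scaling (1.72) and the mean of the probe sets (1.05).

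Maml1, a Mastermind cofactor, went the other way from Rbpj, 2.03-fold higher in NPC (1.02, SE 0.11) and 2.63-fold higher in MEF (SE 0.13 in log2) than in ES cells. Its probe set carries the suffix of shared sequence, and without it Maml1 was at 0.35 and 0.53, neither called; with the mean of its probe sets it was at 0.45 and 0.67. The NPC call also ended without ES 2 (0.98), ES 3 (0.97) or NPC 1 (0.97), under median centring (0.96), the deposited scaling (0.94), array weights (0.93) and a pseudocount of 64 (0.87), and Maml1 was called higher in MEF than in NPC at the deposited scaling (1.30). Maml2 was near the floor, with means of 4.35 (ES), 4.99 (NPC) and 4.95 (MEF), and was called only with a pseudocount of 1 (1.86 in NPC and 1.78 in MEF).

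Of the 4 regulators, Dtx1 alone was called. Dtx1, a Deltex ubiquitin ligase that binds the Notch intracellular part, was at 8.28, 8.41 and 8.53 on the ES arrays, 5.44, 5.51 and 5.55 on the NPC arrays and 5.59 and 5.24 on the MEF arrays. Every ES array was more than 2 log2 units above every other array, and NPC and MEF overlapped. It was 7.49-fold lower in NPC (-2.91, SE 0.15) and 7.97-fold lower in MEF (-2.99, SE 0.16). That probe set has a suffix of shared sequence, and the second one had deposited intensities of 0.484 to 7.48, so that without the first Dtx1 had no call (-0.19 and -0.22). Dtx3 was at 7.26, 7.23 and 7.05 in ES cells, NPC and MEF (means). Numb, an inhibitor of Notch handed to a single daughter cell in some divisions, was at 7.85, 7.63 and 7.76, and its 95% intervals of -0.47 to 0.03 in NPC and -0.37 to 0.19 in MEF against ES cells do not reach 1. Those intervals cover neither the scaling nor the choice of probe set, and the second Numb probe set gave -0.63 in NPC. At the deposited scaling Numb in MEF was 0.73 above ES cells and just under 1 above NPC, neither called. Numbl, a relative of Numb, had its lowest mean in NPC (6.41 ± 0.37) and its highest in MEF (7.40 ± 0.05). That difference of 0.99 was called without NPC 2 (1.14), NPC 3 (1.07) or MEF 2, under median centring (1.42), the deposited scaling (1.76) and a pseudocount of 1 (1.14), and Numbl was also called over ES cells at the deposited scaling (1.20).

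In the target class, Hes1, Hey1, Hey2 and Heyl, 4 of 7, were called higher in MEF than in ES cells and Hes6 was called lower, beside 12.2% and 12.8% of all genes. In NPC against ES cells Hes6 alone of the 7 was called (14.3%), beside 22.9% of all genes. Hes5 and Hes6 had their highest means in NPC, and the other 5 in MEF. RBPJ binds DNA at the core TGGGAA, so the promoters of members that hold this core in pairs are shown here, on GRCm38.p6 from RefSeq and 5′ to 3′ along the gene, with each core or its reverse complement TTCCCA in capitals. They are stretches of windows that run from 250 bases before to 50 bases after the gene start.
Hes5, chr4:154960673-154960871, plus strand: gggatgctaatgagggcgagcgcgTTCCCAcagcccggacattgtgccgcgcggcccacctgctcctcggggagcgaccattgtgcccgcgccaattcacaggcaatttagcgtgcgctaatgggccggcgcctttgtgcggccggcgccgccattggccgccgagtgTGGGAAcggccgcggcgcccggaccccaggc
Hey2, chr10:30842764-30843015, minus strand: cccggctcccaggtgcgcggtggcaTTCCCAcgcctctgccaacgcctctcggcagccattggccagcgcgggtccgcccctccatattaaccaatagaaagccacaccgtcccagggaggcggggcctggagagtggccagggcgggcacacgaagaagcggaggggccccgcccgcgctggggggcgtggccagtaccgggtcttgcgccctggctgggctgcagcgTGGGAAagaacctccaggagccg
Lfng, chr5:140607181-140607263, plus strand: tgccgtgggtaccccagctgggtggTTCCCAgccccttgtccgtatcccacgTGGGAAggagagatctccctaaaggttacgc
Rbpj, chr5:53590172-53590311, plus strand: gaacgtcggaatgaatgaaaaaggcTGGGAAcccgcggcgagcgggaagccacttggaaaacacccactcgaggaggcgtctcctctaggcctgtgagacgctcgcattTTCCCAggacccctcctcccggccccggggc

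In the Hes5 window the cores lay at -226 and -82 from the gene start, on opposite strands, and in the Lfng window at -135 and -108. In Lfng and Hey2 the core was also part of the longer motif CGTGGGAA, which 0.862% of genes with a window hold on either strand. Windows were found for 26 of the 32 members, 33 windows in all, and 7 of these members (26.9%) held TGGGAA on either strand: Hes5, Hey2, Lfng, Maml2, Maml3, Psen2 and Rbpj. Among all genes with windows the share was 28.3%, and 25.6% of the 32851 windows of that length held the core, so its frequency among the members was near that of all genes. The 4 genes shown did not move together: Hes5 and Lfng had their highest means in NPC, Hey2 in MEF and Rbpj in ES cells.

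Hes1, the repressor through which Notch blocks neuron formation, was at 7.67 ± 0.14 in ES cells, 8.08 ± 0.25 in NPC (n = 3 each) and 8.72 ± 0.00 in MEF (n = 2). It was 2.06-fold higher in MEF than in ES cells (1.05, SE 0.15, limma adjusted p = 4.21e-04), a call that ended without ES 3 (0.98) and with a pseudocount of 64 (0.89). The 0.40 in NPC was not called (95% interval 0.09 to 0.72). MEF minus NPC was 0.64, and was called under median centring (1.20) and the deposited scaling (1.55).

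Hes5, the Hes gene most tied to Notch in neural precursors, was dim in all 3 cell types, with a deposited intensity of 4.13 to 22.7 on the ES arrays, 22.3 to 53.2 on the NPC arrays and 8.22 to 14.6 on the MEF arrays. On the log2 scale it was at 4.82 ± 0.45, 5.68 ± 0.43 and 4.62 ± 0.19. NPC minus ES was 0.86 (SE 0.28, limma adjusted p = 0.0306), under the minimum of 1, and was called without ES 1 (1.08) or NPC 2. Hes5 was 2.09-fold lower in MEF than in NPC (-1.07, SE 0.31, limma adjusted p = 0.0235). This call ended without NPC 1 (-0.82), MEF 1 (-0.91) or MEF 2 (-1.17, adjusted p = 0.0734), at the deposited scaling (-0.81), with array weights (-0.88) and with a pseudocount of 64 (-0.47). The second Hes5 probe set was on the same side in both, at 1.02 and -1.55.

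Hes6 is a Hes-family gene that opposes Hes1 and favours neuron formation. It was at 8.33, 8.32 and 8.49 on the ES arrays, 8.99, 9.58 and 9.76 on the NPC arrays and 6.47 and 6.64 on the MEF arrays. The groups did not overlap. Hes6 was 7.41-fold lower in MEF than in NPC (-2.89, SE 0.20) and 3.55-fold lower than in ES cells (-1.83, SE 0.20), with -2.67 and -1.47 for the second probe set. Both Hes6 probe sets carry a suffix of shared sequence, so Hes6 could not be read without such probe sets. Its 2.09-fold rise in NPC over ES cells (1.06, SE 0.18) was not called without NPC 2 (0.99) or NPC 3 (0.90), with median centring (just under the minimum), at the deposited scaling (0.98) or with a pseudocount of 64 (0.96).

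The Hey genes, repressors that serve Notch in heart, vessel wall and mesenchyme, had their highest means in MEF, where Hey2 and Heyl were called higher than in both other cell types and Hey1 than in ES cells. Heyl was at 4.92 ± 0.20 in ES cells, 4.87 ± 0.34 in NPC and 6.63 ± 0.03 in MEF, 3.28-fold higher than in ES cells (1.71, SE 0.23) and 3.40-fold higher than in NPC (1.77, SE 0.23), and its other 2 probe sets gave 1.27 to 1.35 in both. Hey2 was 2.38-fold and 2.61-fold higher in MEF (1.25 and 1.39), from deposited intensities of at most 10.7 on the ES and NPC arrays to 49.3 and 54.8 on the MEF arrays. Hey1 was 2.71-fold higher in MEF than in ES cells (1.44, SE 0.16). It was at 0.73 against NPC, and under median centring (1.14) and the deposited scaling (1.49) that difference was called as well. With a pseudocount of 64 none of these Hey calls held (0.53 to 0.94), and the call of Hey2 over ES cells also missed with a pseudocount of 1 (2.38, adjusted p = 0.0502). Nrarp, a feedback inhibitor induced by Notch, was not called. It was at 6.82 ± 0.20, 6.24 ± 0.53 and 7.00 ± 0.03, and MEF minus NPC (0.76) was called without NPC 1 (1.07), with array weights (1.01), with median centring (1.12) and for values scaled as deposited (1.46).

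Genes chosen here as markers of other cell types were also higher in MEF beside the Hey genes. All 5 pericyte and smooth muscle markers (Rgs5, Cspg4, Pdgfrb, Myh11 and Mcam) were called higher in MEF than in both other cell types, with a summed intensity of 2229 and 2234 on the MEF arrays, 142 to 198 in ES cells and 45.8 to 73.7 in NPC. Of these 5, Pdgfrb was the brightest in MEF (mean 10.64), beside 8.36 for Mcam and 6.66 to 7.54 for Rgs5, Cspg4 and Myh11. The MEF sum is therefore mostly Pdgfrb. All 4 macrophage markers (Ptprc, Tyrobp, Lyz2 and Cd53) were called higher in MEF too, at 769 to 791 against 15.1 to 32.5 and 25.3 to 36.4. No marker was listed at 0 on any array. Whether such cells were present in the MEF cultures, or the fibroblasts themselves gave these values, was not tested. In bulk RNA, more cells of a type and more RNA per cell cannot be told apart.

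**Figure D2:**
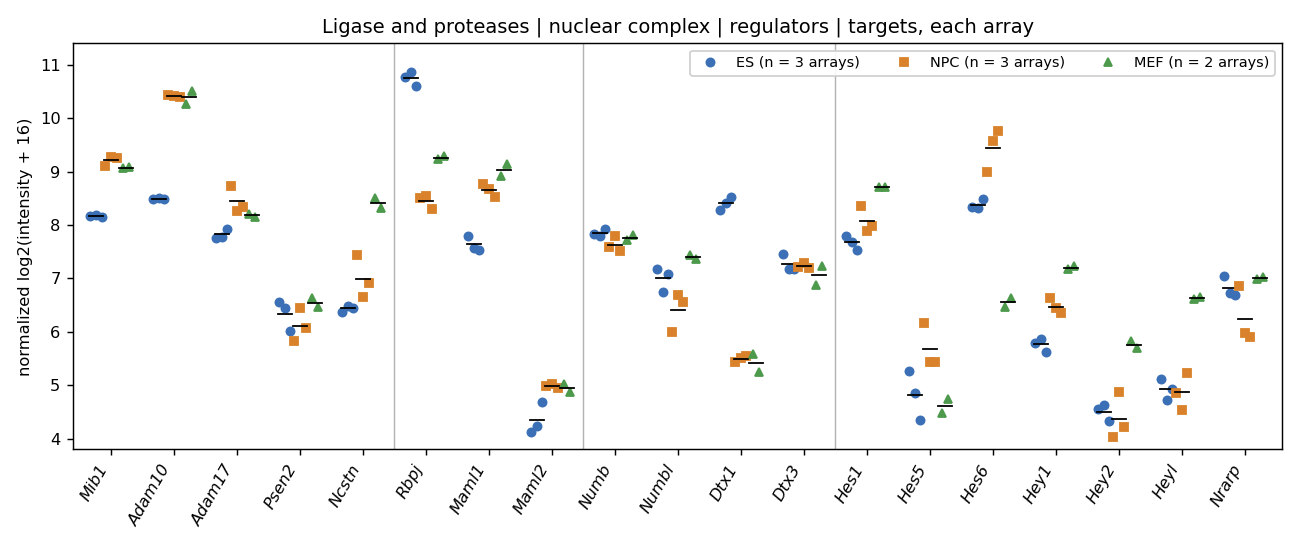
Normalized log2(intensity + 16) on every array of the ligase and protease genes, the nuclear complex, the regulators and the target class (circles ES, squares NPC, triangles MEF), with a bar at each group mean. Rbpj and Dtx1 are highest on the ES arrays, Adam10 is near 10.4 in NPC and MEF, Hes6 is highest on the NPC arrays, and Hey2 and Heyl are raised on the MEF arrays only, Heyl at 6.62 and 6.65.

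Sorted by the cell type where a member was called higher than in both others, 5 were highest in ES cells (Notch3, Notch4, Mfng, Rbpj and Dtx1), 3 in NPC (Notch1, Dll1 and Hes6) and 3 in MEF (Ncstn, Hey2 and Heyl). Over all genes the shares were 7.77%, 4.21% and 6.22%. The remaining 20 had no single highest cell type by this rule, among them Jag1, Adam10 and Lfng, which were called higher in both NPC and MEF than in ES cells. The NPC and MEF sets depended on the scaling: with median centring 1 member was highest in NPC and 5 in MEF, and at the deposited scaling 1 and 8. Among calls of all genes, the share that was higher in MEF than in ES cells was 48.9%, and it rose to 65.1% with median centring and 79.4% for values scaled as deposited. For MEF against NPC it was 56.9%, and 74.2% and 87.6%. The split of the members changed too. In NPC against ES cells it was 8 higher and 6 lower, and 5 and 6 both with median centring and for values scaled as deposited. In MEF it became 11 higher and 7 lower, then 14 and 6, against ES cells, and 8 and 5, then 12 and 3, against NPC. No called member difference changed sign under any alternative run that gave it a value.

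**Figure D3:**
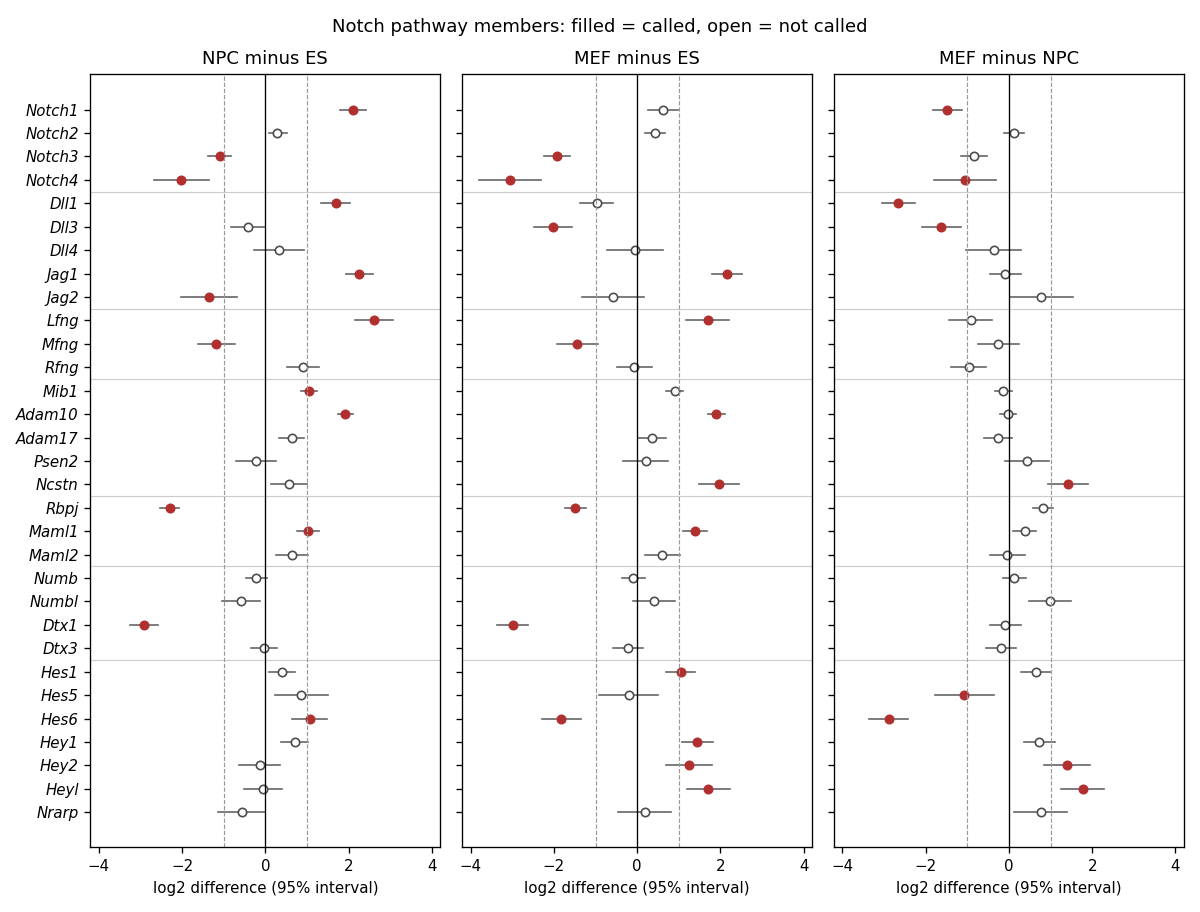
Log2 differences of the 31 members with 95% intervals from the limma fit, for NPC minus ES, MEF minus ES and MEF minus NPC, with dashed lines at -1 and 1 and filled points for called genes. Dtx1, Rbpj and Notch4 lie furthest to the left in NPC minus ES (-2.91, -2.30 and -2.02), and Lfng, Jag1 and Notch1 furthest to the right (2.61, 2.25 and 2.10).

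The choice of probe set mattered for some members. There were 62 probe sets for the 31 members, and 22 members had more than 1. Among called members with further probe sets, all of these were on the same side for 9 of 12 in NPC minus ES (the exceptions being Notch4, Mib1 and Maml1), 10 of 11 in MEF minus ES (the exception being Notch4) and 4 of 6 in MEF minus NPC (the exceptions being Notch4 and Ncstn). None was opposite by 1 log2 unit or more. Notch3, Psen2, Maml1, Dtx1 and Hes6 were read from a probe set with a suffix of shared sequence.

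**Figure D4:**
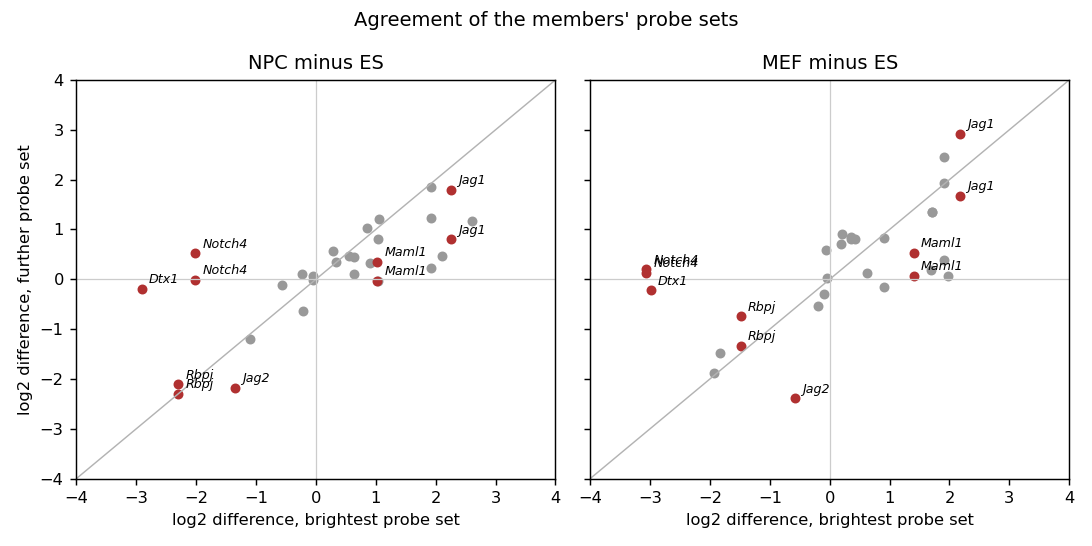
Log2 difference of each further probe set of a member (vertical axis) against that of the member's brightest probe set (horizontal axis), for NPC minus ES and MEF minus ES, with the line of equality; labelled points in red are genes named in the text. The further Rbpj probe sets lie near the line in NPC minus ES (-2.30 and -2.11), while the further probe sets of Notch4 and Dtx1 lie near 0, between -0.22 and 0.52.

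A further list held 56 other genes of the pathway, of which 52 were measured. Against ES cells, 11 rose and 8 fell in NPC (36.5%), in MEF 9 and 8 (32.7%), and between MEF and NPC 7 were higher and 7 lower in MEF (26.9%). The shares of all genes called were 22.9%, 25.0% and 18.5%. The furthest from ES cells in NPC were Tle2, a Groucho-type co-repressor (2.88), the adaptor kinase gene Aak1 (2.37) and the Deltex gene Dtx4 (1.92), and on the lower side Dtx3l (-2.17), Egfl7 (-2.07) and Mfap5 (-1.87). In MEF they were Dlk1, a Delta-like protein without the domain that activates Notch (3.29), and the microfibril genes Mfap5 (3.21) and Mfap2 (2.73), and on the lower side the co-repressor Tle4 (-2.96), Egfl7 (-1.72) and the acetyltransferase gene Kat2b (-1.60). From NPC to MEF, Mfap5 (5.08), Dlk1 (3.49) and Mfap2 (3.25) rose most, and Epn2 (-2.76), Tle4 (-2.61) and the neuronal EGF-repeat gene Dner (-2.55) fell most.

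Of 9 measured genes that Hes factors are known to repress, or that follow early in neurons, 1 was called in NPC against ES cells (11.1%), 2 in MEF against ES cells (22.2%) and 4 between MEF and NPC (44.4%), beside 22.9%, 25.0% and 18.5% of all genes. Dcx alone was called higher in NPC than in ES cells (1.56) and none lower. It was at 4.46 on NPC 1 and at 6.58 and 6.79 on NPC 2 and NPC 3, against 4.14 to 4.63 in ES cells. Neurod1 (-4.47) and Insm1 (-2.07) were lower in MEF than in ES cells. From NPC to MEF, Neurod1 (-3.59), Insm1 (-1.99) and Dcx (-1.89) were lower and Tubb3 (1.36) was higher. Neurog1, Neurog2, Neurog3, Atoh1 and Neurod4 were not called in any comparison. Dcx is also on the neuron marker list: Map2 was higher in NPC (5.22), Stmn2 was lower (-7.04) and Tubb3 was not called there (-0.93). The summed intensity of the 4 neuron markers was 2837 to 2939 in ES cells, 1644 to 2382 in NPC and 783 to 807 in MEF. The ES sum was mostly Stmn2 (mean 11.43) and the NPC sum mostly Map2 (mean 10.79), so the sums do not rank the cell types by neuron content.

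The NPC arrays differed among themselves in the members too, and the genes in these comparisons were picked after their values were seen. NPC 1 had the highest of the 3 NPC values for Hes1 (8.36 against 7.88 and 7.99), Hes5 (6.17 against 5.43 and 5.44), Hey1 (6.63 against 6.44 and 6.35) and Nrarp (6.86 against 5.97 and 5.90), and also for Notch1 and Lfng. It had the lowest value for Hes6 (8.99 against 9.58 and 9.76) and Hey2 (4.03 against 4.87 and 4.21), and Heyl lay between. It was also lowest for Notch2, Notch4, Dll1, Jag1 and Jag2. All 9 measured proneural and early neuronal genes were lowest on NPC 1 too, by 0.13 to 2.23 below the mean of the other arrays. Some of these were near the floor, such as Neurog2 (4.13 against 4.18 and 4.33). Over the members as a whole NPC 1 was highest for 11 and lowest for 12 of 31 (35.5% and 38.7%), close to 36.9% and 40.6% for all genes. These are the values of a single array and no test can be given.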

How the data were processed

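The authors deposited a linear intensity per probe set for each of 8 arrays, made with GCOS 1.4 per the submitters' processing notes, and their scaling is not given in the sources used here. Of 45101 probe sets, 64 controls were left out. Values were turned into log2(intensity + 16) and quantile normalized, and each of 18193 genes was read from the brightest of its probe sets listed with it alone. A single limma model (3.58.1, R 4.3.3; lmFit, eBayes with a variance trend) covered all 8 arrays, and p-values were adjusted by Benjamini-Hochberg over all genes. The procedure was tested on simulated data.

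Members with a called log2 difference of at least 2 are given on every array, with some others, and the rest by means, ranges and counts. From the further list the 3 genes with the largest called differences on each side are named. The members and lists were chosen with earlier results of these data known. Alternatives covered scaling, pseudocount, filter, choice of probe set, variance model, array weights, samples in the fit, a replicate block, a stricter threshold and each array left out.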

Additional observations from a re-analysis of the deposited data

How the results depend on the processing

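Of 39 member calls in the 3 comparisons, 14 held under every alternative run that gave them a value, and 25 ended under at least 1. A further 22 results that were not called became so under at least 1. The calls that held were Notch1, Dll1, Jag1, Lfng, Adam10 and Rbpj in NPC against ES cells, Notch3, Dll3, Jag1, Adam10, Ncstn and Hes6 in MEF against ES cells, and Dll1 and Hes6 between MEF and NPC. Hes6 had no value in the run without probe sets of shared sequence, so its calls were not tried there. Median centring left 1 member highest in NPC and 5 in MEF. The deposited scaling gave 5101 genes and 15 members called between MEF and NPC, 1 member highest in NPC and 8 in MEF. A pseudocount of 64, which shrinks differences of dim genes, gave 2638, 2948 and 2110 genes and 8, 10 and 4 members called (NPC against ES cells, MEF against ES cells, then MEF against NPC), with 3 members highest in ES cells and 1 in MEF. Leaving out each array in turn gave 12 to 15, 16 to 17 and 8 to 11 members called. Arrays of the same number deviated from their group means with correlations of -0.02 to 0.02, so no effect shared by replicate number was seen. That does not settle whether arrays were prepared in pairs, which the labels do not say. With the replicate block 4186, 4564 and 3357 genes and 14, 15 and 10 members were called. In that fit Hes1 in MEF over ES cells (0.99) and Notch4 in MEF against NPC (-0.95, limma adjusted p = 0.0733) were not called, and Lfng (-1.05) and Numbl (1.04) in MEF against NPC were. Dim members such as Hes5, Hey2, Dll4 and Maml2 lie near the floor, where differences are understated.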
